A study of Mus musculus with 12 samples.

Results

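Spliced RNAs that the study's own assembly placed between known genes, but close to one of them, were examined in mouse embryonic stem (ES) cells with and without Notch1. A locus was taken when all of its assembled transcripts carried the class code u, the assembler's mark for an intergenic transcript that matches no reference gene. At least 1 transcript had to have 2 or more exons, and the locus had to lie within 10 kb, on either strand, of a locus with a transcript that matched the reference exactly (class code "="). These conditions held for 1333 of the 40039 assembled loci (3.33%). They make up 45.4% of the 2934 spliced intergenic loci, and the other 1601 lay farther from a known gene. The rule used position and structure, not the count table, and the 1333 loci are called members where they are set beside other loci. As the assembly came from reads of this study, a locus could enter it through the group where its RNA was high. Of the 40039 loci, 25702 hold a transcript that matched the reference, so shares over all loci are not those of a like set. What this does to the direction of the changes was not tested.

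The ES cells were labelled C57BL/6J and were either wild type (WT) or Notch1-/-, grown in medium with 1000 U/ml of LIF, on feeder fibroblasts or gelatin; which libraries came from which surface is not given in the sources used here. At day 0 the cells were undifferentiated. For day 6, drops of 1000 cells were left to aggregate into embryoid bodies under conditions that direct them toward heart cells. Each of the 4 groups (WT day 0, WT day 6, Notch1-/- day 0, Notch1-/- day 6) had 3 poly(A)-selected libraries, read as paired ends of 100 bases. The labels do not say whether replicates were separate cultures, so p-values measure the spread between these libraries, which may be technical. Nor do they give the number of Notch1-/- clones, so an effect of the deletion and a property of the line cannot be told apart.

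Many mammalian promoters fire in both directions, so that a noncoding RNA often starts beside a protein-coding gene and runs the opposite way. Other unannotated transcripts near genes are run-on or alternative ends of the gene, RNAs of nearby enhancers, or separate long noncoding RNAs. In ES cells, genes of transcription factors that set up the germ layers are often flanked by such RNAs, and Notch1 is a receptor whose signal acts on cell fate choices during differentiation.

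For 240 of the 1333 loci (18%) the splice structure matched a gene of the later GENCODE M21 annotation, mostly lincRNA genes (94), protein-coding genes (61), antisense genes (35) and processed transcripts (28). The names come from matching intron and exon lengths in order along the chromosome, not from shared coordinates. Splice junctions of the annotated transcripts behind the results most discussed are printed here from the GENCODE M21 transcripts, 30 bases on each side, with the 5 bases on each side of the joint in capitals.
9030622O22Rik (XLOC_021187, next to Foxa2), intron 2: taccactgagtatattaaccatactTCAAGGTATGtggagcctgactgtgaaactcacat
5033428I22Rik (XLOC_034492, next to Hand2), intron 1: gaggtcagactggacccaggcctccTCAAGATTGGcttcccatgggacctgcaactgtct
Gm29824 (XLOC_036342, overlapping Tbx20), intron 1: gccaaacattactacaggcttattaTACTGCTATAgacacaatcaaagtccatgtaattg
Gm35281 (XLOC_010994, next to Selenok), intron 2: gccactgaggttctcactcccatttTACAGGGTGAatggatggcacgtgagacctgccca
Gm12602 (XLOC_025347, next to Mtap), intron 1: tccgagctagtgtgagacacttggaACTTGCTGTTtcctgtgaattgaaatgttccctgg
Gm34081 (XLOC_007824, next to Rian), intron 1: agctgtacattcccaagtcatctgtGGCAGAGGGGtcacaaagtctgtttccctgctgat
The 9030622O22Rik transcript has 7 exons, of which 5 introns matched the deposited locus, and the printed joint removes an intron of 5403 bases. The joint of 5033428I22Rik removes 12582 bases and that of Gm29824 removes 18875 bases, the only intron of that transcript that matched.

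Promoters of 3 known neighbours are printed because an unannotated locus starts close by and runs the other way. They are RefSeq promoters of the GRCm38.p6 build, 250 bases before to 50 after the start of the named gene, read 5′ to 3′ on that gene's strand, with each CG pair in capitals.
Mboat2, chr12:24831349-24831648, plus strand: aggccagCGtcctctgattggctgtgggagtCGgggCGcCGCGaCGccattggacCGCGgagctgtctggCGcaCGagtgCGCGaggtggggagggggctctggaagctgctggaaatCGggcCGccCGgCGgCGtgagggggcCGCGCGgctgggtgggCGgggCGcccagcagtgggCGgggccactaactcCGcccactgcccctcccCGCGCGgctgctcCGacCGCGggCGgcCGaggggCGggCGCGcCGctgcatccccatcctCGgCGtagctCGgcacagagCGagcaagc
Rala, chr13:17944168-17944467, minus strand: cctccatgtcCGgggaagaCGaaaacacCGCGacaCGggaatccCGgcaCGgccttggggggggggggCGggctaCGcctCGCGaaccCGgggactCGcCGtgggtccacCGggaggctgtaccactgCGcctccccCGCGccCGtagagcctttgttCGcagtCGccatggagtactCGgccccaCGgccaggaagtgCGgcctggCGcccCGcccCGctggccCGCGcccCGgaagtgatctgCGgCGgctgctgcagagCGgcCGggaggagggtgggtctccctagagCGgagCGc
Klf4, chr4:55532426-55532725, minus strand: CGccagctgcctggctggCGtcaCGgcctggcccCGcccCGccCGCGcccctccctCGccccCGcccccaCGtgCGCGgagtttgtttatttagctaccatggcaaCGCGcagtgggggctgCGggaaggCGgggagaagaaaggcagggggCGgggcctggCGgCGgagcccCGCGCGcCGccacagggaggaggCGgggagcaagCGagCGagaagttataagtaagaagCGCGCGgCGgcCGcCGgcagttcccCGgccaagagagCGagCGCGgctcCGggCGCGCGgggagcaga
These hold 40, 36 and 40 CG pairs, and the unannotated locus starts 100, 84 and 299 bases away from Mboat2, Rala and Klf4 in the deposited assembly. Among the 166 neighbours that lie head-to-head with starts within 300 bases, 124 had a promoter in the RefSeq table, with a median of 26 CG pairs (quartiles 16.8 and 39). The median was 20 over the 787 neighbours of all such loci with a promoter, and 13 over all 17492 protein-coding genes in the table. On either strand the letters GGGCGG stood in 73.4% of the 124 promoters against 46.3% of all protein-coding promoters, and TATAAA in 3.23% against 13.3%. CCAAT was about as frequent in both (39.5% and 39.0%), and CACGTG stood in 14.5% against 7.90%. Over the 719 promoters of all protein-coding neighbours, at any distance and orientation, the shares lay between: GGGCGG in 65.0%, TATAAA in 8.90% and CACGTG in 9.74%. These shares describe letters in a window and say nothing of binding.

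The 12 libraries held between 100637179 and 134662426 counts. Notch1 itself stood at 24.7 to 61.6 counts scaled to library size (CPM) in the 6 WT libraries and at 3.80 to 6.80 in the 6 Notch1-/- libraries. The summed level of the 5 linked pluripotency markers (of 8 listed), dominated by Zfp42 and Esrrb, was 997 to 1760 CPM at day 0 and 249 to 550 at day 6. In WT cells all 5 had every day 6 library below every day 0 library. In Notch1-/- cells this held for Zfp42, Esrrb and Klf2, while Nanog overlapped and Tdgf1 lay above (0.185 to 0.271, then 0.328 to 0.684 CPM). The Nanog and Tdgf1 loci share 53.72% and 92.95% of their exon bases with another locus. In both genotypes their low counts may therefore not give the level of the gene. The 8 linked mesoderm and heart markers summed to 20.5 to 43.6 CPM at day 0, to 658 to 1060 at WT day 6 and to 190 to 581 at Notch1-/- day 6. The 5 extraembryonic endoderm markers summed to 170 to 241 CPM at WT day 6 and to 8.10 to 15.3 at Notch1-/- day 6, with Ttr at 45.7 to 60.9 and 0.0702 to 0.414. The 16 feeder fibroblast markers, dominated by Fn1, summed to 2250 to 6610 CPM in all groups. In WT cells 9 of the 16 had all day 6 libraries below all day 0 libraries, 2 (Postn and Twist2) had them above, and 5 overlapped; in Notch1-/- cells 15 lay below and Fn1 overlapped. In bulk RNA, fewer cells of a type and less RNA per cell cannot be told apart.

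The most frequent arrangement was head-to-head, with the locus and the known gene starting near each other and running apart (399 of 1333). A further 283 loci lay upstream of the gene on the same strand, 214 downstream on the same strand and 190 tail-to-tail, and 247 overlapped the span of a known locus. Of the loci outside a known span, 414 lay within 1 kb, 355 from 1 to 5 kb and 317 from 5 to 10 kb, with a median distance of 2250 bases. Near the limit, 58 loci lay in the last 1 kb inside it and 41 spliced intergenic loci in the first 1 kb beyond it. The last inside was at 9971 bases and the first outside at 10033. Among head-to-head loci, 179 started within 300 bases of the start of the neighbour, and the median between starts was 515 bases.

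**Figure D1:**
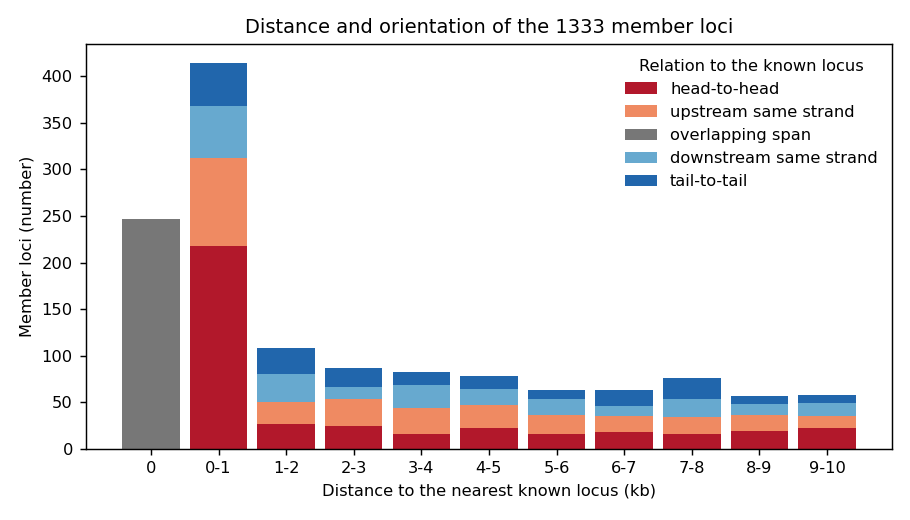
Number of loci (vertical axis) by distance to the nearest known locus in kb (horizontal axis; 0 marks overlapping spans), coloured by orientation. The 414 loci within 1 kb form the tallest bar, and head-to-head loci are its greatest share.

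Most of the loci were small: 814 had no transcript with more than 2 exons, 94 had 5 or more, and the median exon length in all was 3030 bases. The longest intron had a median of 2430 bases, and in 124 loci it was shorter than 200 bases. The most exons, 43, were in XLOC_021034 (mm9 chromosome 2, 119871903 to 119895121, minus strand), of whose introns 41 matched a transcript of Sptbn5, the gene of a spectrin chain. Exons of another locus covered 50% or more of the exon bases in 230 of the 1333 loci. As the strand setting of the counting is not given in the sources used here, reads from such overlapping or antisense loci cannot be told apart. The nearest known locus was linked to a gene symbol for 1282 loci (96.2%) and was protein coding for 1150 (86.3%), and 1206 different neighbours were involved.

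The RNA level of these loci was low and uneven. Together they took 0.325% to 0.402% of the counts of a library, their median was 0.133 to 0.245 CPM, and 197 to 322 of them reached 1 CPM. Per kb of exon, the median was 0.0871 CPM for the locus and 3.27 for its neighbour over 963 pairs with little shared exon sequence, and the locus was above the neighbour in 172 pairs (17.9%). Just 10 loci held 51.0% of all counts, and 99 had no count in any library. The low-count filter left 1058 for testing, and the 275 others were too low in these libraries to be compared.

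The most abundant locus was XLOC_024187 (mm9 chromosome 4, 33038155 to 33052586, plus strand), which starts 352 bases from Ankrd6 and runs the other way. It stood at 280, 311 and 274 CPM in the WT day 0 libraries, at 278, 301 and 249 in WT day 6, at 383, 372 and 384 in Notch1-/- day 0, and at 359, 315 and 317 in Notch1-/- day 6. The Notch1-/- day 0 libraries lay above all WT libraries, by 0.40 ± 0.11 on the log2 scale (edgeR, adjusted p = 0.0420), but the call was lost without Notch1-/- day 0 library 2 (adjusted p = 0.0953) or 3 (0.0860), without WT day 0 library 1 (0.0935) or 3 (0.118), and in a fit of the day 0 libraries blocked on the replicate number (adjusted p = 0.106). XLOC_034810, downstream of Cdh3, the P-cadherin gene, ranged from 220 to 304 CPM at WT day 0 and from 234 to 274 at WT day 6, and the groups overlapped. XLOC_029740, tail-to-tail with Tulp3, lay between 215 and 331 CPM in all 12 libraries and passed no test. Among the 10 most abundant loci, 6 had a longest intron under 200 bases, against 9.30% of all 1333. Of the 94 tested loci with such short gaps, 24.5% were called between day 0 and day 6 in WT cells, beside 44.5% of the 964 others; the difference between these shares was not tested.

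In WT cells, 114 loci rose and 338 fell from day 0 to day 6, and 606 did not pass the test (edgeR quasi-likelihood, Benjamini-Hochberg adjusted p below 0.05 over all loci). That is 42.7% of the 1058, beside 43.1% of all 23991 tested loci; 18.4% of all loci rose and 24.7% fell. The median change was -0.58 on the log2 scale beside -0.12 over all loci. The lower calls were most frequent upstream on the same strand (13 higher and 90 lower of 233) and tail-to-tail (11 higher and 57 lower of 158). Head-to-head loci gave 53 higher and 105 lower of 361, with a median of -0.24. Members within 1 kb of the known gene had a median of -0.22, and those 5 to 10 kb away one of -0.99. In members as in all loci these values depend on the scaling: upper quartile scaling moved the median of all loci from -0.12 to -0.29.

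In Notch1-/- cells, 132 loci were called higher and 249 lower at day 6, 36.0% of those tested beside 35.9% of all loci (17.2% higher and 18.7% lower). The median was -0.23 beside -0.02. Of the calls, 34.6% were higher beside 47.8% of the calls over all loci, and 27.5% beside 37.1% with upper quartile scaling. Here head-to-head loci were called higher about as often as lower, with 69 higher and 65 lower of 361, while 15 rose and 68 fell of the 233 upstream on the same strand. Both genotypes called 52 loci higher and 174 lower; 59 rose and 158 fell with a call in WT cells alone, 74 rose and 72 fell with a call in Notch1-/- cells alone, and 9 were called in opposite directions. The 174 of 1058 lower in both stand beside 2913 of all 23991 tested loci. For the other classes the counts over all loci were not made, so they say nothing particular to these loci. A call in 1 genotype alone does not show that the genotypes differ, which the test of the difference below addresses.

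**Figure D2:**
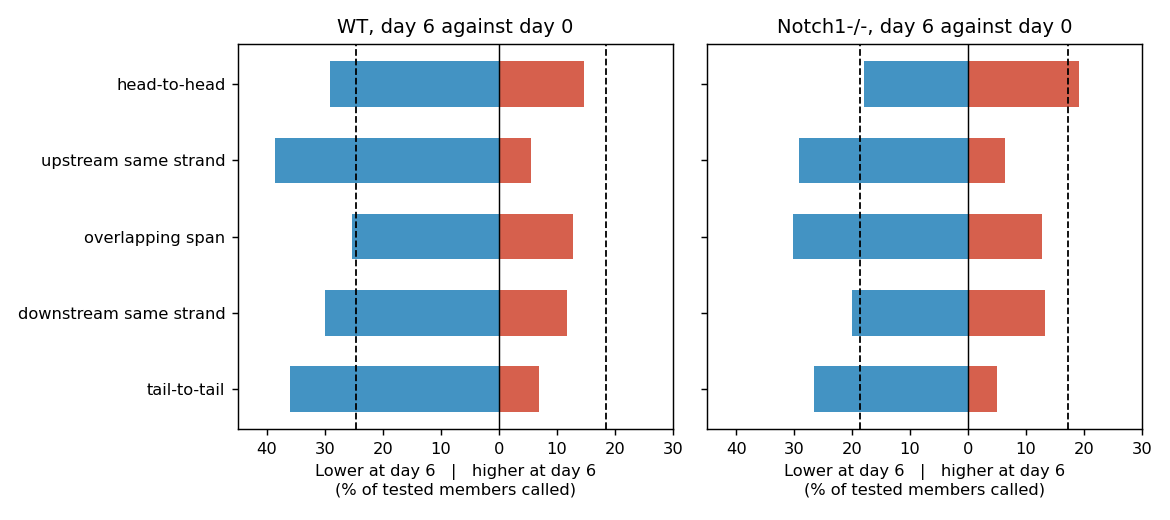
Share of tested loci called lower (bars to the left) or higher (bars to the right) at day 6 against day 0, in percent, by orientation to the known gene, for WT and Notch1-/- cells. Dashed lines mark the shares over all tested loci, and head-to-head loci have the longest bars to the right in both genotypes.

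Of the 1333 loci, 26 had as nearest known locus a gene of a list of developmental regulators, and 23 of these were tested. The list was chosen with earlier results of these data known. Some of these loci share a neighbour, such as the pair near Msx2, and are not independent. The shares over all loci beside them are therefore not those of a like set. In WT cells 12 of the 23 rose and 5 fell by day 6, with a median change of 1.83 on the log2 scale beside -0.12 over all loci, of which 18.4% rose and 24.7% fell. Of the same 23, 6 rose and 4 fell in Notch1-/- cells, with a median of 0.79 beside -0.02 over all loci, of which 17.2% rose and 18.7% fell. Between the genotypes at day 6, 3 were higher and 10 lower in Notch1-/- cells (28.1% of all loci were called there, 13.7% higher and 14.4% lower), and the median was -1.21. At day 0 the median difference was -0.68 beside -0.08 over all loci, and the lowest adjusted p of the 23 was 0.0516 (XLOC_036342, edgeR). Without any 1 library, 11 of the 12 higher and all 5 lower WT calls held, as did 6 of the 10 calls lower in Notch1-/- cells at day 6. At day 6, 4 of the 8 linked mesoderm and heart markers had all Notch1-/- libraries below all WT libraries, 2 overlapped, and Mesp1 and T, whose loci share most of their exon bases with another locus, had them above; of the 5 extraembryonic endoderm markers 4 lay below. At day 0 the summed mesoderm and heart markers overlapped between genotypes (20.5 to 36.0 CPM in WT, 20.6 to 43.6 in Notch1-/- cells). The part of these cell types in the results was not tested.

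XLOC_021187 (mm9 chromosome 2, 147769738 to 147866268, minus strand; 10 exons) begins 2321 bases downstream of Foxa2, whose forkhead factor is needed for node, notochord and endoderm. It is the locus matched to 9030622O22Rik. It stood at 0.0585, 0.111 and 0.0759 CPM in WT day 0, at 12.1, 14.1 and 23.8 in WT day 6, at 0.486, 0.141 and 0.0301 in Notch1-/- day 0, and at 5.42, 1.01 and 4.44 in Notch1-/- day 6. In both genotypes every day 6 library was above every day 0 library, and the 2 day 6 groups did not overlap. The rise was 7.66 ± 0.90 in WT (edgeR, adjusted p = 4.6e-05) and 4.05 ± 0.77 in Notch1-/- cells (adjusted p = 0.00159). Foxa2 rose by 5.22 ± 0.66 and 5.23 ± 0.66. The locus over Foxa2 ratio was lower in Notch1-/- cells at day 6 (-2.93 ± 0.28, limma, adjusted p = 4.28e-05), while the difference of the 2 rises of the locus itself (-3.61 ± 1.07, adjusted p = 0.0465) was lost without any 1 of 10 of the 12 libraries (adjusted p 0.0504 to 0.151). These were all libraries but Notch1-/- day 0 library 3 and Notch1-/- day 6 library 1. The direct day 6 difference of the locus (-2.20 ± 0.68, adjusted p = 0.0284) was lost without Notch1-/- day 6 library 2 (0.0801) or 3 (0.0634), or WT day 6 library 2 (0.0562) or 3 (0.101).

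Hand2 encodes a basic helix-loop-helix factor of heart and limb, and 2 overlapping loci on opposite strands lie beyond its 3′ side. XLOC_034492 (mm9 chromosome 8, 59810487 to 59848143, plus strand), matched to 5033428I22Rik, stood at 0.0878, 0.0597 and 0.169 CPM in WT day 0 and at 6.76, 5.82 and 5.58 in WT day 6. In Notch1-/- cells it stood at 0.0893, 0.290 and 0.291 at day 0 and at 0.468, 0.226 and 0.127 at day 6, so that these groups overlapped. The WT rise was 5.83 ± 0.60 (edgeR, adjusted p = 1.71e-05), the Notch1-/- change 0.28 ± 0.52 (adjusted p = 0.716), and the difference between them -5.56 ± 0.77 (adjusted p = 0.000887). The authors' FPKM of Hand2, whose own exons are all shared with another locus, averaged 0.120 ± 0.0657 and 32.8 ± 5.86 (SD, n = 3) at WT day 0 and day 6, and 0.187 ± 0.0980 and 1.63 ± 0.909 in Notch1-/- cells. XLOC_035217 (Gm34030), on the other strand, had 28 counts over the WT day 6 libraries and none elsewhere, at least 9.77-fold above WT day 0 with the floor of 3 counts over the group. It shares 97.9% of its exon bases, so reads of the pair cannot be told apart.

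Loci beside other heart and mesoderm regulators rose too. XLOC_015554, upstream of Nkx2-5, the homeobox factor of heart progenitors, went from 0.0951, 0.153 and 0.160 CPM to 1.85, 2.36 and 2.74 in WT cells, and stood at 0.0298, 0.0615 and 0.110 and then 0.342, 0.195 and 0.0447 in Notch1-/- cells. All 3 WT day 6 libraries were above the 9 others. The WT rise was 4.08 ± 0.60 (edgeR, adjusted p = 0.000212), and at day 6 the Notch1-/- level was lower by 3.59 ± 0.58 (log2 change -3.59, adjusted p = 0.000747). Nkx2-5 itself was low but moved in the same directions without overlap. It stood at 0.11 to 0.273 CPM in WT day 0, 0.658 to 1.00 in WT day 6 and 0.112 to 0.211 in Notch1-/- day 6.

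XLOC_036342 (Gm29824) overlaps the span of Tbx20, a T-box factor of the heart, and shares 10.9% of its exon bases. It had 0.0293, 0 and 0 CPM in WT day 0, 0.389, 0.398 and 0.180 in WT day 6, 0.0694, 0.141 and 0.0902 in Notch1-/- day 0, and 0.0630, 0.00780 and 0.0298 in Notch1-/- day 6. In WT cells the level was highest at day 6, and in Notch1-/- cells each day 6 library was below each day 0 library. The difference of the day 6 changes was -6.39 ± 1.20 (edgeR, adjusted p = 0.00535), next to -6.34 ± 0.68 for Tbx20 itself, which went from 1.32 to 2.12 CPM up to 187 to 322 in WT and stood at 6.98 to 31.0 in Notch1-/- day 6.

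Msx2, a homeobox gene induced by BMP, had a pair of loci before its start on the other strand, at 53569237 to 53573555 and 53573633 to 53601047 of mm9 chromosome 13. The nearer, XLOC_008729, rose in WT cells by 3.04 ± 0.65 (edgeR, adjusted p = 0.00245). The farther, XLOC_008730, went from 0.922, 0.597 and 0.371 CPM to 7.17, 5.65 and 7.0 in WT, and from 0.387, 0.0791 and 0.211 to 1.22, 1.56 and 0.357 in Notch1-/- cells. WT day 6 lay above every other group, and the Notch1-/- groups overlapped. Its changes were 3.39 ± 0.59 in WT and 2.22 ± 0.59 in Notch1-/- cells (adjusted p = 0.000645 and 0.0111), and at day 6 the Notch1-/- level was lower (-2.66 ± 0.57, adjusted p = 0.00415). The 2 loci lie end to end and share the neighbour, so they are not independent.

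XLOC_010346, downstream of Wnt5a, the gene of a ligand that acts mainly without beta-catenin, stood at 0.0293, 0.205 and 0.118 CPM in WT day 0 and at 0.828, 1.02 and 1.18 in WT day 6. The rise of 3.11 ± 0.62 (edgeR, adjusted p = 0.00164) was close to the 3.29 ± 0.56 of Wnt5a. The locus over Wnt5a ratio changed by -0.20 ± 0.61 (adjusted p = 0.836). In Notch1-/- cells it stood at 0.208, 0.158 and 0.531 and then 0.747, 0.453 and 0.350, groups that overlapped.

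XLOC_016952, which starts 236 bases from the zinc finger gene Sall3, rose in both genotypes, by 3.30 ± 0.61 in WT and 4.46 ± 0.63 in Notch1-/- cells (edgeR, adjusted p = 0.00105 and 0.000237). Its 3 Notch1-/- day 6 libraries stood at 3.11, 4.04 and 2.26 CPM, above the 1.22, 1.08 and 1.11 of WT day 6, but that difference (1.46 ± 0.54) did not pass (adjusted p = 0.0606). XLOC_017158, within the span of Prdm6, a repressor of smooth muscle genes, had 3 counts in WT day 0 and 271 in WT day 6, a ratio of 94.6 (exact 95% counting interval 32.0 to 461). The ratio was 28.2 (7.50 to 238) in Notch1-/- cells.

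XLOC_019310 (mm9 chromosome 2, 74500628 to 74504921, plus strand) ends 1446 bases before Hoxd13, the last gene of its Hox cluster, with roles in digits and hindgut. It stood at 0, 0.00852 and 0.0422 CPM in WT day 0, at 0.248, 0.355 and 0.325 in WT day 6, and at 0 in 4 of the 6 Notch1-/- libraries. At day 6 there were 110 counts in WT and 1 in Notch1-/- cells, a ratio of 115 with an exact 95% counting interval of 20.3 to 4600, and the call held without any 1 library (edgeR, adjusted p = 0.000820 with all libraries). Hoxd13 stood at 28.7 to 34.1 CPM in WT day 6 and 0.846 to 1.67 in Notch1-/- day 6.

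XLOC_022328, 440 bases from the start of Hey1, a target gene of Notch, rose in WT cells by 1.83 ± 0.59 (edgeR, adjusted p = 0.0242), a call lost without WT day 0 library 2 (0.0712) or WT day 6 library 1 (0.104). In Notch1-/- cells the change of 1.26 ± 0.63 did not pass (adjusted p = 0.141), and the difference of the 2 changes was -0.58 ± 0.87 (adjusted p = 0.732). Next to Hes1, another target, XLOC_014023 was too low to test and XLOC_014024 had 40 counts in Notch1-/- day 0 and 1 in Notch1-/- day 6, a ratio of 47.5 (8.06 to 1920). The authors' FPKM of Hes1 went the other way, from 14.3 ± 4.82 to 40.6 ± 8.0 (SD, n = 3).

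Fgf5, the growth factor of the primed epiblast, had a downstream locus that was higher in Notch1-/- cells. XLOC_026951 stood at 0.110, 0.119 and 0.0759 CPM in WT day 0, 0.141, 0.135 and 0.205 in WT day 6, 0.0298, 0.0352 and 0.170 in Notch1-/- day 0, and 0.891, 0.484 and 0.916 in Notch1-/- day 6. The last group stood above the 9 other libraries. It was higher than WT day 6 by 2.24 ± 0.54 (edgeR, adjusted p = 0.00799), and Fgf5, at 113 to 160 CPM against 4.85 to 15.7, by 3.90 ± 0.54.

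Of loci beside 3 regulators of the undifferentiated state, those near Klf5 and Prdm14 fell by day 6 in each genotype, and that near Klf4 had less support. XLOC_010807, downstream of Klf5, went from 1.18, 2.34 and 2.77 CPM to 0.182, 0.195 and 0.265 in WT and from 2.83, 4.19 and 5.16 to 0.315, 0.429 and 0.141 in Notch1-/- cells. All day 6 libraries were below all day 0 libraries, with changes of -3.29 ± 0.46 and -3.78 ± 0.46 (edgeR, adjusted p = 0.000146 and 8.57e-05). XLOC_024351, which starts 299 bases from Klf4 (promoter above), stood at 2.50, 1.93 and 3.48 CPM in WT day 0 and at 1.81, 1.41 and 1.40 in WT day 6, a change of -0.77 ± 0.33 that did not pass (adjusted p = 0.0788), while Klf4 fell by 2.96 ± 0.35 on the log2 scale. The locus over Klf4 ratio rose by 2.21 ± 0.48 in WT cells (limma, adjusted p = 0.00495). In Notch1-/- cells the fall of XLOC_024351 passed with all libraries. That call was lost without Notch1-/- day 0 library 1 or 2 or any Notch1-/- day 6 library (edgeR, adjusted p 0.05 to 0.144). XLOC_000829, downstream of Prdm14, a factor of pluripotency and the germ line, fell in both genotypes, by 1.97 ± 0.38 and 4.04 ± 0.42 (edgeR, log2 changes -1.97 and -4.04, adjusted p = 0.00141 and 3.37e-05), though 75.8% of its exon bases belong to other loci too.

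XLOC_033191, tail-to-tail with Mesp2, a factor of somite formation, stood at 0.849, 0.861 and 1.49 CPM in WT day 0, 0.132, 0.0677 and 0.188 in WT day 6, 0.734, 0.607 and 0.441 in Notch1-/- day 0 and 0.378, 0.507 and 0.477 in Notch1-/- day 6. WT day 6 was below all other groups. The changes were -3.03 ± 0.42 and -0.39 ± 0.38, and they differed by 2.64 ± 0.56 (edgeR, adjusted p = 0.0102). XLOC_034682, far upstream of Sall1, passed no test, at 1.19 to 2.90 CPM in all 12 libraries, and XLOC_002407 near Prdm1 did not pass either. XLOC_027361, inside the span of Cdx2, had no count in any library, and all of its exon bases are shared. XLOC_018141, beside a locus that joins Fgf8 with other genes, is given with the differences between genotypes in the closing section.

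**Figure D3:**
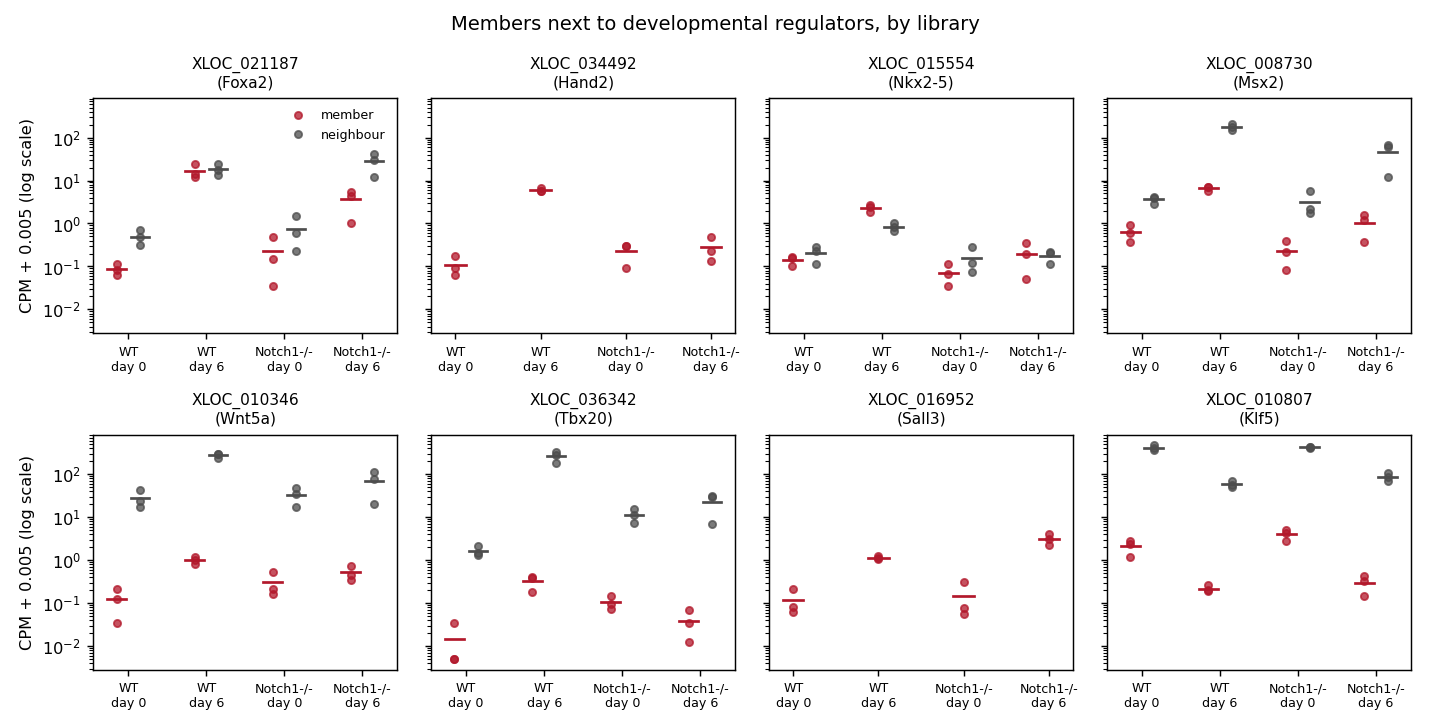
CPM plus 0.005 on a log scale (vertical axis) in each library of the 4 groups (horizontal axis) for 8 loci next to developmental regulators (red) and, where the neighbour has its own counts, the neighbour (grey); lines are group means, n = 3. The loci near Hand2, Nkx2-5 and Msx2 are highest in the WT day 6 libraries, and the Sall3 locus is high at day 6 in both genotypes.

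Away from these regulators, a pair of loci named for their falls in both genotypes lay beside genes that did not pass the test. XLOC_025347 (Gm12602; mm9 chromosome 4, 88745781 to 88774509, minus strand) lies 8431 bases head-to-head from Mtap, an enzyme of methionine salvage. It went from 3.74, 2.73 and 6.40 CPM to 0.0745, 0.0592 and 0.0684 in WT and from 1.41, 4.16 and 5.45 to 0.0450, 0.0390 and 0.0596 in Notch1-/- cells. Day 0 and day 6 were far apart in both, with changes of -5.97 ± 0.56 and -6.23 ± 0.58 (edgeR, adjusted p = 9.8e-06 and 1.56e-05). Mtap stood at 81.0 to 153 CPM in all libraries, and the locus over Mtap ratio fell by 5.69 ± 0.40 and 5.29 ± 0.40 on the log2 scale (limma, adjusted p = 1.07e-05 and 1.3e-05).

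XLOC_010994 (Gm35281; mm9 chromosome 14, 30599857 to 30762769, minus strand) showed the same beside Selenok, a selenoprotein gene of the endoplasmic reticulum. It went from 2.37, 13.8 and 3.74 CPM to 0.0745, 0.0677 and 0.0940 in WT and from 3.16, 10 and 5.93 to 0.171, 0.140 and 0.223 in Notch1-/- cells. The falls of 6.38 ± 0.74 and 5.15 ± 0.68 (edgeR, log2 changes -6.38 and -5.15, adjusted p = 3.91e-05 and 0.000146) stood beside -0.08 ± 0.26 and 0.65 ± 0.26 for Selenok. Day 0 library 2 was the highest of its group in both genotypes, and the calls held without it.

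In another pair the locus and its neighbour fell together. XLOC_000656, head-to-head with Fcgr2b, an Fc receptor gene, fell by 4.37 ± 0.44 in WT and 3.57 ± 0.43 in Notch1-/- cells on the log2 scale, and Fcgr2b by 4.35 ± 0.39 and 4.08 ± 0.38 (edgeR, adjusted p = 1.62e-05, 7.75e-05, 7.06e-06 and 1.58e-05). The locus stood at 3.53, 3.88 and 7.33 CPM in WT day 0 and at 0.215, 0.279 and 0.214 in WT day 6. XLOC_039256, on chromosome X near Zfp92, fell from 15.7, 30 and 9.01 CPM to 1.75, 1.96 and 2.49 in WT and from 13.2, 13 and 20.6 to 0.882, 0.897 and 0.707 in Notch1-/- cells (-3.14 ± 0.39 and -4.23 ± 0.41, adjusted p = 6.2e-05 and 1.99e-05), while Zfp92 changed by 0.42 ± 0.71 and 1.68 ± 0.77 and did not pass. Of the 16 feeder markers, 9 lay lower at day 6 in WT and 15 in Notch1-/- cells without overlap, and 2 lay higher in WT; the part of feeder RNA in these falls was not tested. In 32 of the 1058 tested loci (3.02%) the order of the 6 day 0 libraries was that of the summed feeder markers within each genotype, beside 4.64% of all loci and 10 of the 16 feeder markers; among the 174 loci lower in both genotypes it was 10 (5.75%), beside 8.75% of all such loci.

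Of the loci that rose in WT cells, XLOC_026842 (mm9 chromosome 5, 72954737 to 72965663, plus strand) lies tail-to-tail with Zar1, a gene of the oocyte. It stood at 0.139, 0.119 and 0.236 CPM in WT day 0, 5.23, 7.16 and 8.91 in WT day 6, 0.109, 0.0967 and 0.140 in Notch1-/- day 0 and 0.288, 0.125 and 0.134 in Notch1-/- day 6. The 3 WT day 6 libraries stood apart from the 9 others. The rise of 5.42 ± 0.43 in WT, the change of 0.65 ± 0.42 in Notch1-/- cells and their difference of -4.77 ± 0.58 (edgeR, adjusted p = 3.31e-06, 0.250 and 0.000414) ran beside 5.02 ± 0.59, 1.29 ± 0.60 and -3.72 ± 0.84 for Zar1. XLOC_005069, within the span of the ubiquitin ligase gene March10, gave 0.439, 0.290 and 0.338, then 4.75, 4.42 and 4.68 CPM in WT, and 0.114 to 0.507 in all Notch1-/- libraries. March10 itself was at 3.62 to 4.16 CPM in WT day 6 and at 0.0819 to 0.153 in Notch1-/- day 6.

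XLOC_012309 begins 3444 bases downstream of Scn8a, a sodium channel gene, on the same strand. It went from 3.36, 1.66 and 1.54 CPM to 30.7, 28.4 and 23.8 in WT and from 3.08, 1.42 and 1.55 to 7.92, 5.56 and 4.91 in Notch1-/- cells. Day 6 was above day 0 in both genotypes, by 3.66 ± 0.39 and 1.60 ± 0.36 (edgeR, adjusted p = 2.11e-05 and 0.00438). Scn8a changed by -0.10 ± 0.33 in WT (adjusted p = 0.835) and by 1.68 ± 0.33 in Notch1-/- cells, and the locus over Scn8a ratio rose by 3.69 ± 0.31 in WT (limma, adjusted p = 1.67e-05) against -0.07 ± 0.31 in Notch1-/- cells.

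In 3 of the named head-to-head pairs with starts under 300 bases apart the locus was the lower partner and, in WT cells, the one with the greater change. In the Klf4 pair above, the known gene changed more. The 3 pairs are examples. How many of the other named pairs, such as that of Sall3 above, or of the 179 loci with starts within 300 bases follow either course was not counted. XLOC_007389, beside the Mboat2 promoter printed above, stood at 0.424, 0.307 and 0.743 CPM in WT day 0, 2.45, 2.34 and 1.40 in WT day 6, 0.218, 0.0440 and 0.150 in Notch1-/- day 0 and 1.60, 0.866 and 1.36 in Notch1-/- day 6. It rose by 2.07 ± 0.49 and 3.22 ± 0.53 (edgeR, adjusted p = 0.00445 and 0.000656), while Mboat2, a membrane-bound acyltransferase gene, changed by 0.07 ± 0.37 and 0.50 ± 0.38 and did not pass. XLOC_008500, beside the Rala promoter, rose in WT by 1.22 ± 0.29 (adjusted p = 0.0045) with Rala, a small GTPase gene, at 0.62 ± 0.12. XLOC_017031, 125 bases from Asxl3, went from 0.139, 0.213 and 0.118 to 3.78, 3.47 and 3.17 CPM in WT and from 0.0694, 0.202 and 0.331 to 1.49, 1.43 and 0.640 in Notch1-/- cells, with changes of 4.46 ± 0.52 and 2.56 ± 0.49 next to 2.39 ± 0.24 and 2.88 ± 0.25 for Asxl3. Its longest intron is 84 bases long.

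Over 964 pairs in which both partners were tested, the locus and its neighbour were both called higher in 67 and both lower in 152 in WT cells, and called in opposite directions in 37. The neighbour was not called beside 34 loci that rose and 129 that fell. In Notch1-/- cells 67 pairs were called higher together, 88 lower together and 22 apart. As a description across pairs, which share libraries and often chromatin, Spearman's rho between the 2 changes was 0.466 in WT and 0.448 in Notch1-/- cells. Neither these counts nor rho, here or between the genotypes below, were computed for other pairs of neighbouring loci. Whether these loci follow their neighbours more than any adjacent loci do was therefore not tested. With pairs of little shared exon sequence it was 0.571 for the 271 head-to-head pairs, 0.552 for the 143 with the locus downstream on the same strand, 0.520 for the 86 overlapping, 0.394 for the 173 upstream and 0.200 for the 122 tail-to-tail pairs in WT. The Notch1-/- cells again gave tail-to-tail pairs the lowest value (0.207) and head-to-head pairs the highest (0.564). By distance in WT it was 0.554 up to 1 kb (290 pairs), 0.481 from 1 to 5 kb (221) and 0.362 from 5 to 10 kb (198).

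**Figure D4:**
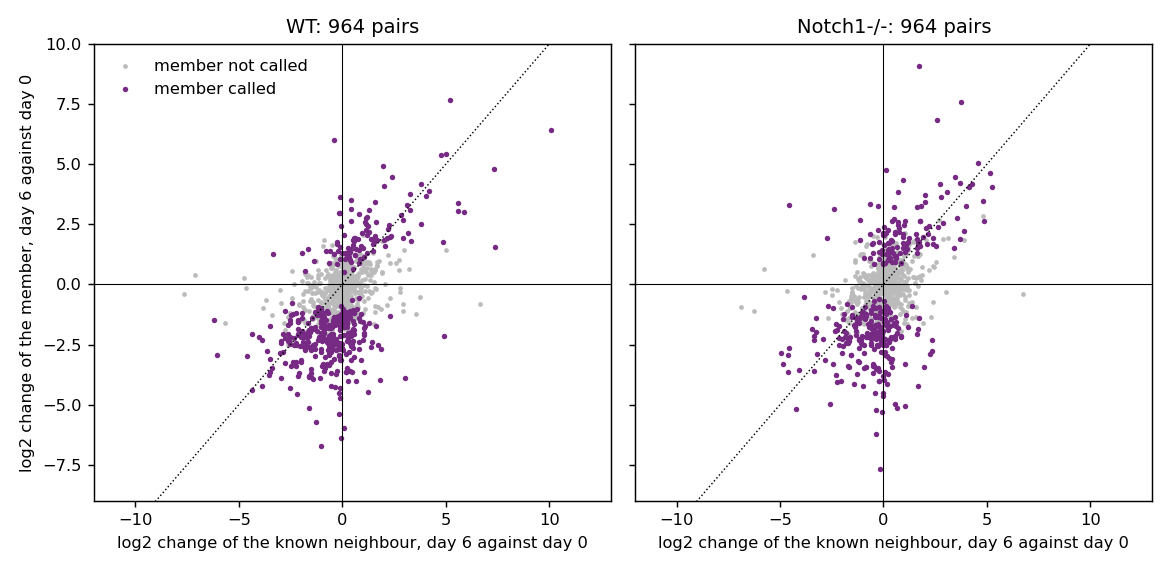
Change of each locus (vertical axis) against that of its known neighbour (horizontal axis), both as log2 fold change from day 0 to day 6, for 964 pairs in WT and in Notch1-/- cells; purple points are loci that passed the test, and the dotted line marks equal change. Many purple points lie below 0 where the neighbour changed little, among them the 129 loci that fell in WT cells without a call in the neighbour.

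The ratio of locus to neighbour was tested directly. In WT cells it rose in 105 and fell in 239 of the 964 pairs (limma, adjusted over 13800 pairs of neighbouring loci, of which 32.5% were called, 14.9% higher and 17.6% lower). With Notch1 deleted it rose in 92 and fell in 197 (27.4% of all pairs, 12.9% higher and 14.5% lower). Between genotypes it was higher in Notch1-/- cells in 37 pairs and lower in 49 at day 0 (5.94% of all pairs, 2.69% higher and 3.25% lower), and higher in 110 and lower in 128 at day 6 (23.0%, 11.3% and 11.7%). Its change differed between genotypes in 46 pairs with a more positive and 35 with a more negative Notch1-/- value (8.2%, 4.36% and 3.83%). The pairs with the greatest ratio changes included some in which the neighbour moved and the locus did not. XLOC_005718 (Gm31522) starts 372 bases from Ccl2, a chemokine gene, and stood at 0.476, 0.136 and 1.53 CPM in WT day 0 and 0.174, 0.296 and 0.231 in WT day 6, groups that overlapped, while Ccl2 went from 24.9 to 204 CPM down to 1.55 to 2.06. The ratio rose by 4.13 ± 0.37 in WT and 5.82 ± 0.37 in Notch1-/- cells (limma, adjusted p = 2.31e-05 and 4.78e-06).

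XLOC_027590, matched to the coding gene Ccdc149, stayed at 0.655 to 1.5 CPM in all 12 libraries. Sod3, the extracellular superoxide dismutase gene 4886 bases away, fell from 5.56 to 41.8 CPM to 0.108 to 0.180 in WT, and the ratio rose by 6.87 ± 0.52 (limma, adjusted p = 1.32e-05). XLOC_020344, tail-to-tail with Gata5, a factor of endoderm and heart, was at 0.637, 0.324 and 1.12 CPM in WT day 0 and at 0.290, 0.491 and 0.393 in WT day 6, whereas Gata5 rose from 0.0341 to 0.322 CPM up to 7.71 to 21.6. The ratio fell by 7.49 ± 0.60 on the log2 scale (limma, adjusted p = 1.5e-05), and the change of the locus itself (-0.83 ± 0.61) did not pass.

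Between the genotypes at day 0, 46 loci were higher and 85 lower in Notch1-/- cells, 12.4% of those tested beside 9.56% of all loci (3.71% higher and 5.86% lower), with a median of -0.32 beside -0.08. With the replicate number as a block, which at day 0 may pair the libraries, the counts were 54 and 130, and in a blocked fit of the 6 day 0 libraries alone 32 and 59. In a fit of the 6 day 0 libraries alone without the block they fell to 16 and 25. In the fit of all groups, leaving out single libraries moved the counts widely, from 27 and 31 at the lowest to 82 and 179 at the highest. The lower calls came to 179 without WT library 2, 145 without Notch1-/- library 1, 31 without Notch1-/- library 2, 48 without Notch1-/- library 3, 45 without WT library 1 and 48 without WT library 3. The higher calls came to 82, 64, 35, 27, 28 and 36 in that order.

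Some differences were near all-or-none and appeared at both days. XLOC_031934 (mm9 chromosome 7, 86619022 to 86622550, plus strand) lies 5842 bases from Polg, the mitochondrial DNA polymerase gene. It stood at 1.75, 2.41 and 4.80 CPM in WT day 0 and 0.753, 0.923 and 1.22 in WT day 6, and had 1 count over the 3 Notch1-/- libraries of each day. The WT over Notch1-/- ratio was 921 at day 0 (exact 95% counting interval 165 to 36400) and 360 at day 6 (64.2 to 14300). Polg was at 25.7 to 43.6 CPM in WT and 15.3 to 26.9 in Notch1-/- libraries.

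XLOC_022450, near Gm5148, stood at 10.3, 11.4 and 9.97 CPM in WT day 0 and 3.90, 3.77 and 7.35 in WT day 6, and at 0.397, 0.00879 and 0.221 and 0.0630, 0.0390 and 0.0596 in Notch1-/- cells, without overlap. The differences were -5.67 ± 0.71 and -6.52 ± 0.78 (edgeR, adjusted p = 0.000450 and 9.08e-05), while Gm5148 was at 677 to 900 CPM everywhere. XLOC_020251, 483 bases from Gm14235, gave 4.29, 9.50 and 16.5 CPM and then 8.83, 18.8 and 67 in WT, and 0.0791 to 0.360 in the 6 Notch1-/- libraries. Its differences were -6.11 ± 0.83 and -6.57 ± 0.82 (adjusted p = 0.000755 and 0.000122).

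XLOC_003138 (mm9 chromosome 10, 21774603 to 21778488, minus strand) was the reverse. It stood at 0.0512, 0.0256 and 0.0422 CPM in WT day 0, 0.00828, 0 and 0.0256 in WT day 6, 4.02, 3.45 and 2.85 in Notch1-/- day 0 and 3.01, 1.79 and 2.54 in Notch1-/- day 6. The Notch1-/- levels were higher by 6.39 ± 0.50 and 7.64 ± 0.57 (edgeR, adjusted p = 1.14e-05 and 2.86e-06). Its neighbour, with no linked symbol, was at or near 0 in all libraries.

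XLOC_007824 (Gm34081; mm9 chromosome 12, 110730075 to 110777963, minus strand) starts 1095 bases from Rian, a noncoding RNA expressed from the maternal copy of an imprinted cluster. It stood at 3.01, 8.08 and 4.90 CPM in WT day 0, 1.66, 1.72 and 1.91 in WT day 6, 0.00992, 0.0176 and 0.10 in Notch1-/- day 0 and 0.729, 0.398 and 0.149 in Notch1-/- day 6. At day 0 the Notch1-/- level was lower (-6.96 ± 0.78, edgeR, adjusted p = 0.000191). From there it rose in Notch1-/- cells by 3.31 ± 0.74 (adjusted p = 0.00423), a call lost with limma on log2(FPKM + 1) (0.07, adjusted p = 0.584). The authors' FPKM of Rian, which shares 62.8% of its exon bases, averaged 163 ± 143 and 512 ± 444 in WT and 40.6 ± 23.8 and 1.00 ± 0.419 in Notch1-/- cells (SD, n = 3, day 0 and day 6). Its mean was lower at day 6 than at day 0 in Notch1-/- cells.

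XLOC_031629, matched to Slc6a16 and downstream of Tead2, a TEAD factor gene of the Hippo pathway, stood at 19.3, 9.13 and 19.1 CPM in WT day 0 and at 1.04 to 2.62 in the 9 other libraries. At day 0 it was lower in Notch1-/- cells (-3.24 ± 0.33, edgeR, adjusted p = 9.01e-05). XLOC_002468, tail-to-tail with Col13a1, was lower there too (-2.29 ± 0.35, adjusted p = 0.00164), with 2.90, 1.32 and 3.20 CPM against 0.555, 0.580 and 0.381, and Col13a1 itself, the gene of a transmembrane collagen, differed by -2.37 ± 0.54. Of the loci higher in Notch1-/- cells at day 0, XLOC_036330 (Gm18227), downstream of Pigyl, had 0.798, 0.562 and 1.11 CPM in WT against 5.27, 4.47 and 2.91 (2.35 ± 0.32, adjusted p = 0.000761). XLOC_017106, upstream of Gnpda1, had 0.746, 0.997 and 1.43 against 3.13, 3.78 and 4.23 (1.81 ± 0.31, adjusted p = 0.00344).

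**Figure D5:**
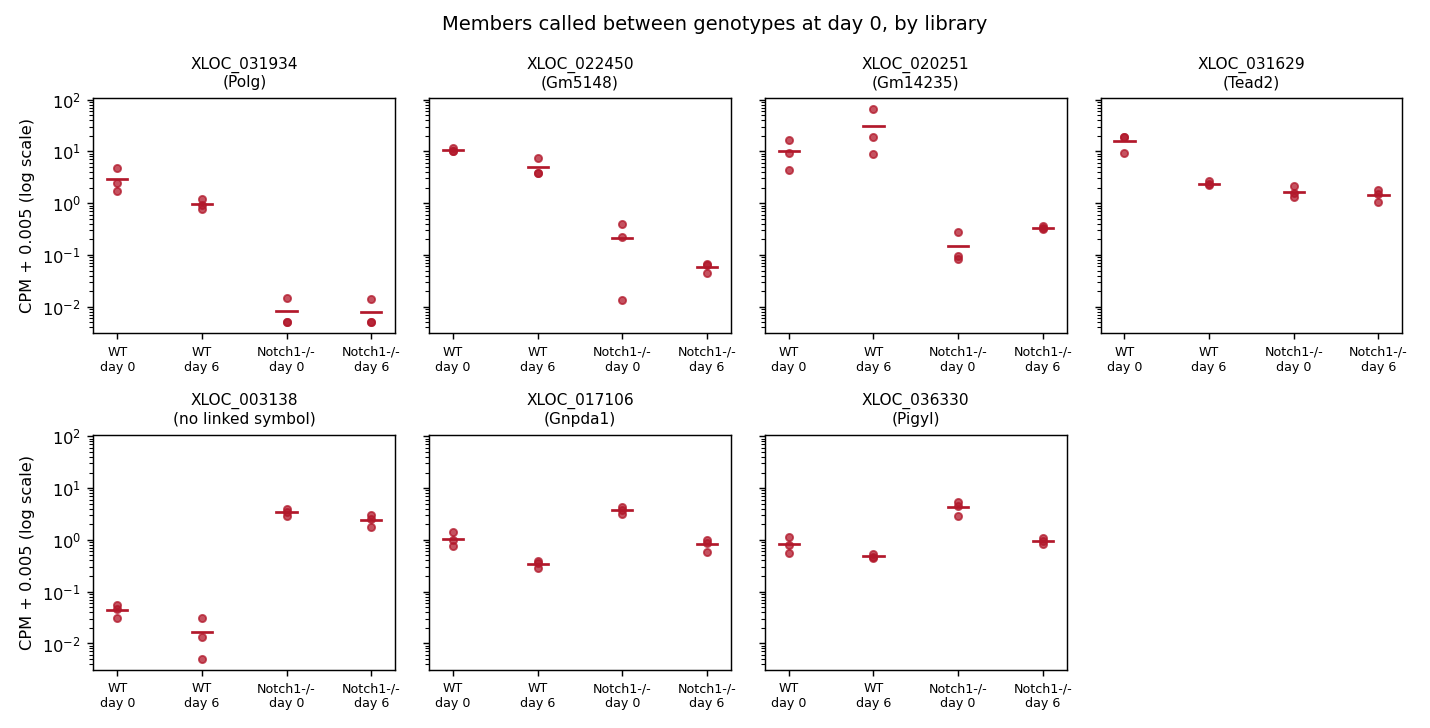
CPM plus 0.005 on a log scale (vertical axis) in each library of the 4 groups (horizontal axis) for 7 loci called between the genotypes at day 0, each with its neighbour in brackets; lines are group means, n = 3. In the top row the Notch1-/- day 0 libraries lie below the WT day 0 libraries, and in the bottom row above them.

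At day 6, 130 loci were higher and 147 lower in Notch1-/- cells, 26.2% of those tested beside 28.1% of all loci, with a median of 0.01 in both (-0.03 in both with DESeq2 size factors). Without WT day 6 library 1 the higher calls came to 86, and the lower calls came to 91 without it, 93 without Notch1-/- day 6 library 2 and 85 without library 3. Among 964 pairs, 47 were higher and 52 lower together with the neighbour and 14 were called apart, and rho was 0.411. Beside those described above, XLOC_027508, within the span of Zfp512, stood at 2.57, 2.84 and 4.20 CPM in WT day 6 and at 31.4, 34.8 and 20.9 in Notch1-/- day 6 (3.18 ± 0.54, edgeR, adjusted p = 0.00104), while Zfp512 was at 129 to 149 and 133 to 156. XLOC_016143, within the span of Ston1, an endocytic adaptor gene, was lower, with 0.977, 0.770 and 0.915 CPM against 0.153, 0.125 and 0.104 (-2.80 ± 0.49, adjusted p = 0.00117). XLOC_000442, which lies 9726 bases head-to-head from Gli2, the Hedgehog transcription factor gene, stood at 0.364, 0.322 and 0.513 CPM in WT against 1.36, 3.07 and 2.58 (2.55 ± 0.46, adjusted p = 0.0016), and Gli2 did not pass (-0.38 ± 0.50, adjusted p = 0.607).

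The change from day 0 to day 6 was tested for a difference between the genotypes in the 1058 loci (edgeR, interaction term), and the Notch1-/- change was more positive in 63 and more negative in 28. That is 8.60%, beside 11.3% of all loci (6.36% more positive, 4.92% more negative), and the median difference was 0.30 beside 0.08 (0.20 beside -0.02 with DESeq2 size factors). With limma on log2(FPKM + 1) the balance was the other way, with 48 more positive and 61 more negative. The counts moved with single libraries, from 25 and 11 without WT day 6 library 2 up to 86 higher without Notch1-/- day 0 library 1 and 44 lower without WT day 0 library 2. Of the 23 tested loci next to a regulator, 2 were called with a more positive and 4 with a more negative Notch1-/- change, and 1 and 2 of these held without any 1 library. Except where a sentence says otherwise, each edgeR or limma call printed for a named locus held when any 1 library was left out; of 166 calls over the 76 loci named by rule, 121 held and 45 did not. With limma on log2(FPKM + 1), 38 of 154 calls on these loci no longer passed and 1 reversed. The ratios to Foxa2, Klf4, Scn8a and, in WT cells, Ccl2 were not refitted with single libraries left out, so whether these calls hold then is not known.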

How the data were processed

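Poly(A) RNA of 12 libraries (4 groups of 3) was measured. Per the submitters' processing notes, TopHat2 2.0.8, Cufflinks 2.1.1, HTSeq 0.5.4p3, DESeq and the mm9 build were used; the sources used here do not say which tool made which file or how strand was counted. Deposited by the authors were raw counts per assembled locus, FPKM values per locus, and the assembly with its class codes. Counts were used for all tests and FPKM for neighbours whose exons overlap another locus and as an alternative.

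Loci were linked to GENCODE M21 by intron and exon lengths in order along each chromosome (21009 loci; shifted positions linked 4 to 7). Counts were filtered with filterByExpr, scaled by TMM (factors 0.9078 to 1.142) and tested with edgeR 4.0.16 (quasi-likelihood, 23991 loci, all libraries in 1 fit); ratios to the neighbour with limma 3.58.1 on log2 CPM with a prior count of 2. DESeq2 1.42.0 was an alternative. R 4.3.3 and Python 3.11.15 were used, and the tests were tested on simulated data. Fold changes are log2 with standard errors; counting intervals and floors (3 counts) cover counting error only. For edgeR the standard error is approximate. It was worked back as the absolute log2 change over the square root of the quasi-likelihood F statistic.

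Named were, per comparison, the 6 higher and 6 lower called members with the greatest change among those averaging 0 or more in log2 CPM, under 50% shared exon length and no overlap between groups (not asked of the interaction), the 10 most abundant, the 6 greatest ratio changes per genotype, and all members next to a listed developmental regulator. Some loci named by this rule are not reported here. The members and lists were chosen with earlier results of these data known.

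Deviations of libraries with the same number from their group means correlated at 0.432, 0.317 and 0.251 between the 2 day 0 groups. In every other pair of groups at least 1 correlation was below 0.1, though libraries 1 and 2 correlated there at 0.092 to 0.254. Correlations between unlike numbers are not given here. The hint that numbers pair the day 0 libraries comes from the data, not the labels. Alternatives were another scaling, test, filter, distance, pairing, neighbour or prior count and leaving out each library; the block on day 0 libraries alone, pairs sharing under 50% of exon length and the same-strand neighbour for paired changes were added after seeing the data.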

Additional observations from a re-analysis of the deposited data

Results flagged for a closer look

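For 21 of the named loci the change from day 0 to day 6 differed between WT and Notch1-/- cells by a test of the difference itself (edgeR quasi-likelihood, interaction term, adjusted p below 0.05 over all loci, 3 libraries per group). Values are log2 differences, Notch1-/- change minus WT change, with standard errors. For 11 loci the call held without any 1 library, although with limma on log2(FPKM + 1) it was lost for XLOC_000442 (0.28, adjusted p = 0.199), XLOC_035529 (2.17, adjusted p = 0.111) and XLOC_021034 (0.47, adjusted p = 0.0691). Of the 11, XLOC_034492 near Hand2 (-5.56 ± 0.77, adjusted p = 0.000887), XLOC_036342 overlapping the span of Tbx20 (-6.39 ± 1.20, adjusted p = 0.00535), XLOC_026842 near Zar1 (-4.77 ± 0.58, adjusted p = 0.000414) and XLOC_005069 overlapping the span of March10 (-2.79 ± 0.57, adjusted p = 0.00823) rose in WT cells and did not pass in Notch1-/- cells. The reverse sign was seen for XLOC_007824 near Rian (4.90 ± 0.93, adjusted p = 0.00583), XLOC_035529 near Terf2ip (4.74 ± 1.06, adjusted p = 0.0132), XLOC_000442 near Gli2 (2.90 ± 0.63, adjusted p = 0.0111), XLOC_002468 near Col13a1 (2.84 ± 0.48, adjusted p = 0.00299), XLOC_021034, matched to Sptbn5 (2.80 ± 0.63, adjusted p = 0.0136), XLOC_033191 near Mesp2 (2.64 ± 0.56, adjusted p = 0.0102) and XLOC_031629 near Tead2 (2.51 ± 0.44, adjusted p = 0.00382). XLOC_035529 stood at 2.48, 2.17 and 11 CPM in WT day 0, at 0.232, 0.254 and 0.470 in WT day 6, at 3.06, 1.96 and 5.61 in Notch1-/- day 0 and at 3.15, 2.29 and 11.9 in Notch1-/- day 6, so WT day 6 lay below all other libraries.

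In the 10 others the call was lost without some single libraries, and in 4 of them also with limma on log2(FPKM + 1). XLOC_021187 near Foxa2 (-3.61 ± 1.07) is described above. XLOC_012309 near Scn8a (-2.05 ± 0.50, adjusted p = 0.0198) lost it without Notch1-/- day 6 library 3, WT day 0 library 3 or WT day 6 library 1 or 2 (adjusted p 0.0503 to 0.0544). XLOC_000829 near Prdm14 (-2.07 ± 0.55, adjusted p = 0.0310) lost it without Notch1-/- day 0 library 3, Notch1-/- day 6 library 2 or 3, WT day 0 library 1 or 3, or any WT day 6 library (0.0519 to 0.0905). XLOC_003361 near Zwint (-2.48 ± 0.67, adjusted p = 0.0316) lost it without Notch1-/- day 0 library 3, Notch1-/- day 6 library 1 or 3, WT day 0 library 1 or 3, or any WT day 6 library (0.0604 to 0.0772). XLOC_004636 overlapping the span of Ntn1 (2.65 ± 0.71, adjusted p = 0.0318) lost it without Notch1-/- day 0 library 3, Notch1-/- day 6 library 2 or 3, WT day 0 library 2 or 3, or any WT day 6 library (0.0506 to 0.0872). XLOC_008500 near Rala (-1.38 ± 0.40, adjusted p = 0.0435) lost it without Notch1-/- day 0 library 3, WT day 0 library 1, or any day 6 library (0.0523 to 0.116).

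XLOC_012101 near Scrt1 (1.96 ± 0.56, adjusted p = 0.0400) lost the call without Notch1-/- day 0 library 2 or 3, WT day 0 library 3, or any day 6 library (0.0555 to 0.0975). XLOC_031429 near Lypd4 (-0.88 ± 0.25, adjusted p = 0.0376) lost it without Notch1-/- day 0 library 2 or 3, WT day 0 library 3, any Notch1-/- day 6 library, or WT day 6 library 1 or 2 (0.0521 to 0.105). XLOC_018141 near the locus linked to Mgea5, Fgf8 and Npm3 (3.31 ± 0.93, adjusted p = 0.0384) lost it without Notch1-/- day 0 library 1 or 2, WT day 0 library 1 or 3, any Notch1-/- day 6 library, or WT day 6 library 1 or 2 (0.0517 to 0.0883). XLOC_024872 near Zfp985 (2.92 ± 0.84, adjusted p = 0.0425) lost it without Notch1-/- day 0 library 1 or 3, Notch1-/- day 6 library 2 or 3, WT day 0 library 1 or 3, or WT day 6 library 1 or 2 (0.0596 to 0.114).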

How the results depend on the processing

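Of 166 calls on named loci, 165 held with the replicate number as a block; XLOC_000829 at day 6 between genotypes did not (adjusted p = 0.0631, edgeR). With this block, 130 loci were lower in Notch1-/- cells at day 0 instead of 85, and 78 instead of 49 ratios to the neighbour; a blocked fit of the day 0 libraries alone gave 59. With the DESeq2 Wald test, 76 were higher and 128 lower at day 0, and 57 instead of 28 had a more negative Notch1-/- change. With limma on log2(FPKM + 1), 55 were lower at day 0, 79 instead of 130 higher at day 6, 154 instead of 249 lower from day 0 to day 6 in Notch1-/- cells, 48 had a more positive and 61 a more negative Notch1-/- change (63 and 28 with edgeR), and 13 instead of 22 pairs were called apart in Notch1-/- cells. There the WT change of XLOC_024872 reversed, to 0.34 (adjusted p = 0.355); the cause was not tested. With the 2 compared groups alone in the fit, 16 were higher and 25 lower at day 0, 198 were higher at day 6, and at day 6 183 instead of 99 pairs were called together and 52 instead of 14 apart. Within 5 kb, which keeps fewer pairs, 19 instead of 37 pairs were called apart in WT and 12 in Notch1-/- cells. With the nearest known locus on the same strand, which also leaves fewer pairs, the ratio was higher in 48 and lower in 131 in WT, 47 and 106 in Notch1-/- cells, 20 and 23 between genotypes at day 0, 64 and 57 at day 6, and 29 and 20 for the difference of the changes; 94 pairs were called together and 18 apart in WT, 57 together in Notch1-/- cells, and 51 together and 5 apart at day 6 between genotypes.

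Leaving out 1 library at a time gave ranges of 27 to 82 higher and 31 to 179 lower at day 0, 86 to 115 and 85 to 123 at day 6, and 25 to 86 and 11 to 44 for the difference of the changes. The WT counts (83 to 123 higher, 236 to 354 lower) and the Notch1-/- counts (90 to 162 and 181 to 233) moved by less than 1.5 times. For the ratio the ranges were 20 to 66 and 19 to 119 at day 0, 72 to 89 and 78 to 104 at day 6, 60 to 137 higher in Notch1-/- cells, and 26 to 76 and 14 to 47 for the difference of the changes. Pairs called together ranged from 143 to 223 in WT, 102 to 176 in Notch1-/- cells and 55 to 83 at day 6 between genotypes, and pairs called apart from 13 to 36, 12 to 32 and 4 to 9. In every fit over all groups the spread of a locus is taken from all groups, also where a group is left with 2 libraries. Of 154 calls on named loci, 38 were lost with limma on log2(FPKM + 1), 6 with no filter on low counts, 4 with upper quartile scaling, 2 with DESeq2 size factors and 2 with the DESeq2 Wald test, as were 9 of 130 with the compared groups alone in the fit; those without a filter included XLOC_024187 at day 0 (adjusted p = 0.0542) and the interaction of XLOC_008500 (0.055), and with DESeq2 size factors that of XLOC_024872 (0.0504). None of these settings but limma on log2(FPKM + 1) changed the direction of a named call.

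Low counts limit the reading: 275 loci could not be tested, and 505 of 1333 had at least 10 counts in every library. Reads of overlapping loci cannot be told apart, and the names of loci rest on matched splice structure.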
